A study of Bos taurus with 56 samples.

Results

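The WNT genes described here are the 51 genes of the deposited oviduct count table whose symbols start with WNT, FZD, SFRP, DKK or RSPO, or are among 11 named single genes (LRP5, LRP6, LGR4, LGR5, AXIN1, WIF1, RNF43, TCF7, TCF7L1, TCF7L2 and LEF1). They are 51 of 31903 genes in the table. AXIN2, LGR6 and ZNRF3, which the same rule names, were not analysed here. Of the 51 genes, 29 had a mean of at least 1 CPM (counts on genes, scaled by TMM to a common library size and expressed per 1e+06) over the 12 conditions and were compared, and 22 lay below it. RNA of oviduct epithelial cells was sequenced from 14 Holstein animals, which were 5 heifers that had never calved, 5 primiparous non-lactating cows that were dried off at calving and never milked, and 4 primiparous lactating cows that were milked. All were killed on Day 3 after an induced oestrus, the cows at 60 days post-partum. Cells were scraped from the ampulla and the isthmus, on the side ipsilateral to the corpus luteum (CL) and on the contralateral side, giving 56 libraries. The animals are lettered A to E within their group.

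WNT proteins are secreted, lipid-modified ligands. They bind Frizzled (FZD) receptors and the co-receptors LRP5 and LRP6, which stops the AXIN-based destruction complex from degrading beta-catenin, so that beta-catenin can act with the DNA-binding factors TCF7, TCF7L1, TCF7L2 and LEF1. R-spondins (RSPO) bind LGR receptors and hold back RNF43, a ubiquitin ligase that removes Frizzled from the cell surface. SFRP proteins, WIF1 and DKK proteins such as DKK1 are secreted inhibitors. In the female tract the pathway is known for its part in forming and patterning the Müllerian duct, from which the oviduct and uterus arise.

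Counts on genes ranged from 1901454 to 6836850 per library (median 4931502.5), which was 8.66 to 13.7% of the counted alignments. A value of 1 CPM stood for 1.93 to 6.75 counts, and a floor of 3 counts for 0.445 to 1.55 CPM, so members near 1 CPM rest on few reads and the floor covers counting error only. The summed level of 7 epithelial markers was 971 to 2240 CPM in every library, above 17.1 to 232 CPM for 10 leukocyte markers, 17.4 to 497 CPM for 10 fibroblast markers, 13.5 to 417 CPM for 6 endothelial markers and 10.6 to 97.1 CPM for 8 smooth muscle markers, so that markers of other cell types were present beside those of the labelled epithelium. In 4 of the 14 ipsilateral ampulla libraries the animal number of the column name was doubtful, because each correlated more with another animal's other libraries (r = 0.67 to 0.91 over 200 genes) than with those of its own number (r = -0.16 to 0.22). They were labelled as heifer B, as non-lactating cow B, and as a non-lactating and a lactating library that carry each other's group's animal number, and results that use the ipsilateral ampulla were also computed without them. For the libraries labelled heifer B and non-lactating cow B the metabolic group is in doubt as well, since each matched the animal of the other label best, whereas the remaining pair matched animals of their labelled group.

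Among the ligands, 6 of 17 WNT genes reached 1 CPM (WNT2B, WNT4, WNT5A, WNT5B, WNT9A and WNT11). The other 11 ligands were WNT1, WNT2, WNT3, WNT3A, WNT6, WNT7A, WNT8A, WNT8B, WNT9B, WNT10A and WNT10B, with means over the conditions of 0.00379 to 0.811 CPM. Of 10 Frizzled receptors 8 reached 1 CPM, and FZD2 and FZD9 did not, at 0.990 and 0.0974 CPM. None of the 4 R-spondin genes (RSPO1, RSPO2, RSPO3 and RSPO4) did, with means of 0.00678 to 0.124 CPM and no count in 44 to 54 of the 56 libraries. Their receptors LGR4 and LGR5 were both above the limit. Of WIF1 and the genes named SFRP or DKK, SFRP1, SFRP2, DKK3, DKKL1 and WIF1 were compared. SFRP4, SFRP5, DKK1, DKK2 and DKK4 were below, with means of 0.00316 to 0.708 CPM. The genes nearest to the limit were SFRP1 at 1.09 CPM and LEF1 at 1.13 CPM inside it and FZD2 at 0.990 CPM outside it. The same 29 genes reached it with CPM without TMM or with RLE size factors.

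The pathway differed between the isthmus, the narrow segment next to the uterus, and the ampulla, the wide segment nearer the ovary. The receptor LGR5, the transcription factors TCF7 and TCF7L1 and the inhibitors SFRP2 and WIF1 were higher in the isthmus on both sides, and the ligands WNT2B, WNT4 and WNT5B and the receptor FZD8 were lower there. On the ipsilateral side, the quasi-likelihood test of edgeR, with p adjusted by the Benjamini-Hochberg method, called 22 of the 27 compared members that passed the count filter (81.5%), where 50.3% of all 15276 genes tested were called. Of these members 14 were higher and 8 lower in the isthmus, against 24.5 and 25.8% of all genes. On the contralateral side 20 of 29 were called (69%), 14 higher and 6 lower, against 43.5% of 15387 genes, 21.5% higher and 22% lower. The median log2 fold change of the members was 0.28 on the ipsilateral and 0.54 on the contralateral side, and that of all genes tested -0.02 and -0.01. LEF1 and SFRP1 were not tested on the ipsilateral side. SFRP2, TCF7L1, LEF1 and WNT9B did not pass the filter in the ampulla alone and entered the region tests through their isthmus libraries. DKK3 passed contralaterally mainly through its ampulla libraries. The calls of these genes are not independent of the segment where they are high. The counts of called members are therefore not evidence about all 51 genes, nor independent of that filter. Both comparisons use the same 14 animals, and in bulk samples fewer cells of a type and less RNA per cell cannot be told apart.

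**Figure D1:**
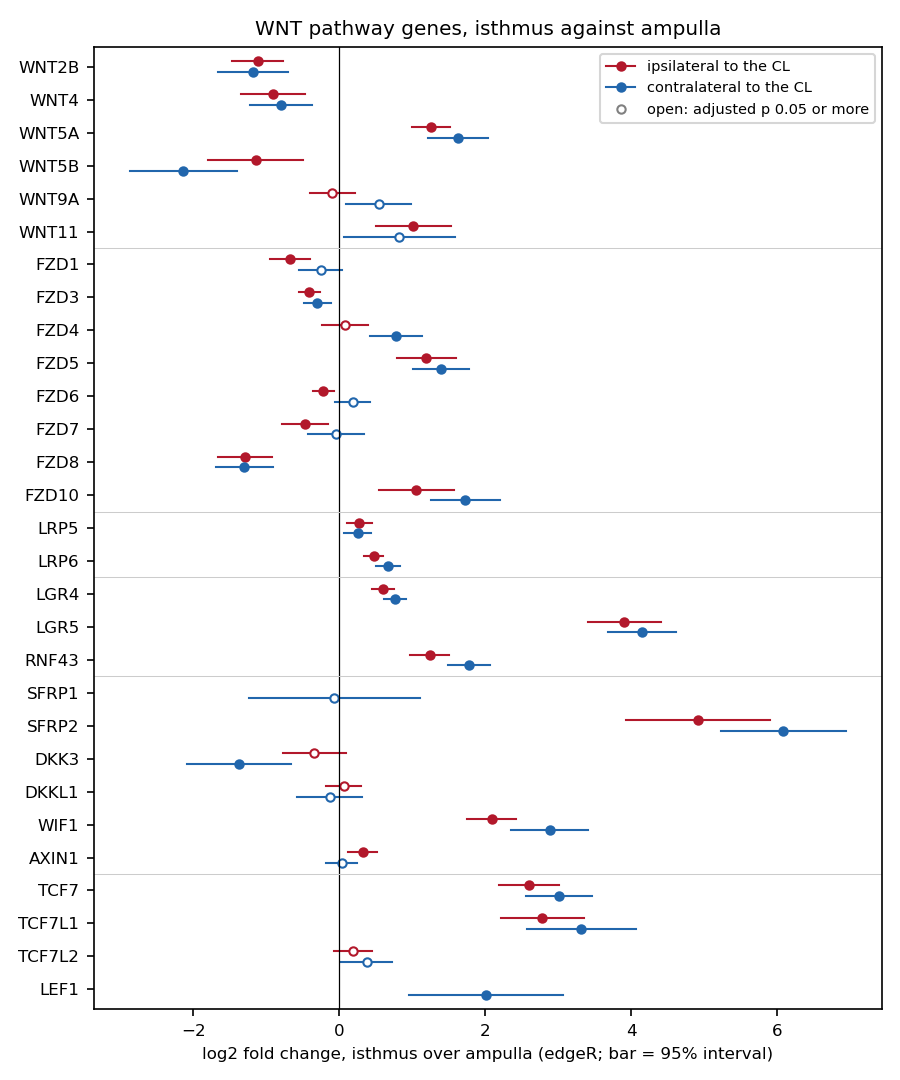
Log2 fold changes of the 29 compared members, isthmus over ampulla, on the ipsilateral (red) and contralateral (blue) side, from edgeR, with 95% intervals as bars. Filled points have an adjusted p under 0.05, and SFRP2 at 4.92 and 6.09 and LGR5 at 3.91 and 4.16 lie furthest to the right.

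LGR5, a receptor for R-spondins and a marker of epithelial stem cells in the gut, had the smallest p of the members on both sides. On the ipsilateral side it stood at 68.1, 116, 37.6, 30.7 and 48.8 CPM in the ampulla of heifers A to E and at 1246, 834, 1071, 861 and 558 CPM in their isthmus. The ampulla of lactating cows A, C and D held 19.8, 14.03 and 97.8 CPM, the lactating library with a non-lactating number 84.5 CPM, and the isthmus of lactating cows A to D 504, 908, 1278 and 1075 CPM. Every isthmus library of these groups exceeded every ampulla library. In the non-lactating group the ampulla of cows A, B, D and E held 27.6, 64.9, 64.2 and 38.8 CPM and the library with a lactating number 54.9 CPM, and the isthmus of cows A to E 615, 567, 696, 777 and 795 CPM. Here too the segments were apart. Over all animals the means were 842 ± 250.4 CPM (SD, n = 14) in the isthmus and 54.9 ± 29.96 CPM (SD, n = 14) in the ampulla (log2 fold change 3.91, SE 0.25, adjusted p = 2.57e-13).

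On the contralateral side LGR5 was again higher in the isthmus. The ampulla held 34.1, 21.8, 58.3, 47.9 and 22.7 CPM in heifers A to E, 17.5, 61.4, 55.6, 70.2 and 22.6 CPM in non-lactating cows A to E and 32.3, 49.96, 13.3 and 37.9 CPM in lactating cows A to D. The isthmus values were 1055, 625, 1075, 599 and 484 CPM, 590.1, 340.2, 1184, 884 and 598 CPM and 588, 708, 540.2 and 493 CPM in the same order. As on the other side, the lowest isthmus library lay above the highest ampulla library (log2 fold change 4.16, SE 0.24, adjusted p = 1.32e-14). Within an animal the isthmus exceeded the ampulla by 5.5 to 39.1 times on the contralateral side (14 of 14 animals), and by 10.9 to 88 times on the ipsilateral side (10 of 10 animals, the 4 doubtful libraries left out). LGR4, the paralogue of LGR5, was also higher, at 423 ± 68.6 CPM (SD, n = 14) against 272 ± 39.8 CPM (SD, n = 14) ipsilaterally (log2 fold change 0.61, adjusted p = 1.27e-07) and 0.76 on the log2 scale contralaterally (adjusted p = 2.59e-09). RNF43, the ligase that R-spondins hold back through LGR receptors, was higher in the isthmus too, by 1.24 (adjusted p = 1.22e-08) and 1.78 (adjusted p = 3.98e-11) on the log2 scale, and in every animal compared on each side.

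The ligands divided by gene. WNT5A, best known for signalling without beta-catenin, was higher in the isthmus, at 25.7 ± 7.93 CPM (SD, n = 14) against 10.4 ± 1.95 CPM (SD, n = 14) ipsilaterally, and the groups did not overlap (log2 fold change 1.26, adjusted p = 4.37e-09). On the contralateral side its log2 fold change was 1.63 (adjusted p = 1.72e-07). Its close paralogue WNT5B went the other way, with -1.15 ipsilaterally (adjusted p = 0.00513) and -2.14 contralaterally (adjusted p = 2.34e-05), and lay lower in the isthmus in 14 of 14 animals on the contralateral side. WNT2B, a ligand of the beta-catenin branch, was lower in the isthmus in every animal compared, with log2 fold changes of -1.12 and -1.18 (adjusted p = 6.53e-06 and 0.000236). WNT4, needed to form the Müllerian duct, also decreased, with log2 fold changes of -0.91 and -0.79 (adjusted p = 0.00121 and 0.0037). WNT11, a ligand of the polarity branch, was higher in the ipsilateral isthmus (1.02, adjusted p = 0.00183), and its contralateral value of 0.82 had an adjusted p of 0.0876 and was called once the animal entered as a block (adjusted p = 0.0382), and without heifer E or non-lactating cow E. The ipsilateral call of WNT11 was lost with the block when the 4 doubtful libraries were left out (adjusted p = 0.0647). WNT9A was not called on either side (-0.091 and 0.54), except contralaterally with the block (adjusted p = 0.0287), without lactating cow D and without non-lactating cow D. WNT9B, below the limit of 1 CPM, was called contralaterally on 133 counts in the isthmus against 16 in the ampulla of 14 animals (log2 fold change 3.27, adjusted p = 8.04e-05).

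The Frizzled receptors also moved in both directions. FZD5, which takes part in beta-catenin signalling, was higher in the isthmus, at 145 ± 60.8 CPM (SD, n = 14) against 62.9 ± 26.3 CPM (SD, n = 14) on the ipsilateral side (log2 fold change 1.19, adjusted p = 1.86e-05) and 1.40 contralaterally (adjusted p = 7.92e-07). Its closest paralogue FZD8 was lower in the isthmus (log2 fold changes -1.29 and -1.30, adjusted p = 1.59e-06 and 3.4e-06) in every animal compared. FZD10 was higher there, by 1.06 and 1.73 (adjusted p = 0.00129 and 6.25e-07). FZD3, a receptor of planar cell polarity, was slightly lower, with -0.41 and -0.30 (adjusted p = 3.36e-05 and 0.0114). FZD4, which also binds norrin, was called only contralaterally, at 19.5 ± 5.98 CPM (SD, n = 14) in the isthmus against 11.3 ± 3.58 CPM (SD, n = 14) (log2 fold change 0.78, adjusted p = 0.000806). FZD1 and FZD7, which are paralogues, and FZD6 were called only ipsilaterally, with -0.67, -0.47 and -0.21 (adjusted p = 0.000159, 0.0148 and 0.0203), where the contralateral values were -0.25, -0.046 and 0.19. Whether a region effect differed between sides was tested apart, as the interaction described further on. FZD6 lost its call without lactating cow A (adjusted p = 0.0568), without the count filter, and with the block when the doubtful libraries were left out. The co-receptor LRP6 was higher in the isthmus by 0.47 and 0.67 (adjusted p = 5.51e-07 and 7.15e-08). LRP5 was higher by 0.28 and 0.25 (adjusted p = 0.00935 and 0.0326). Its ipsilateral call was lost without the doubtful libraries (adjusted p = 0.0507), and its contralateral call in 8 of 14 fits that left out 1 animal, those without heifers B or D, lactating cows A, B or C and non-lactating cows A, B or D, with the highest adjusted p of 0.0910 without lactating cow C.

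Of the inhibitors, SFRP2 and WIF1 were higher in the isthmus. SFRP2, a secreted protein that binds WNT ligands, had 415 counts in the ipsilateral isthmus of 14 animals against 11 in the ampulla, and 1022 against 14 contralaterally. In the ampulla it was at 0 in 10 of 14 ipsilateral and 9 of 14 contralateral libraries, at 1.59 CPM in the ipsilateral library of non-lactating cow D and at 1.33 CPM in the contralateral library of lactating cow B, the highest of each side. Its ampulla values by library were 0.397, 0, 0, 0 and 0 CPM ipsilaterally and 0.831, 0.196, 0, 0 and 0 CPM contralaterally in heifers A to E. The fitted log2 fold changes were 4.92 (SE 0.50, adjusted p = 2.81e-09) and 6.09 (SE 0.44, adjusted p = 2.1e-12), and their size rests on these few ampulla counts. Among cows only the ampulla libraries of non-lactating cows B and D and lactating cow C held SFRP2 ipsilaterally, at 0.197, 1.59 and 0.187 CPM, and those of non-lactating cows A and C and lactating cow B contralaterally, at 0.638, 0.230 and 1.33 CPM. Contralaterally no isthmus library came down to the ampulla, whereas ipsilaterally lactating cow A's isthmus, at 1.57 CPM, lay just under the highest ampulla library.

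WIF1, a secreted inhibitor that also binds WNT ligands, was higher in the isthmus in every animal compared, at 34.7 ± 15.2 CPM (SD, n = 14) against 7.897 ± 2.87 CPM (SD, n = 14) ipsilaterally (log2 fold change 2.09, adjusted p = 5.2e-11) and at 33.1 ± 20.8 CPM (SD, n = 14) against 4.32 ± 1.85 CPM (SD, n = 14) contralaterally (2.89, adjusted p = 3.83e-10). DKK3, the divergent member of the Dickkopf family, was lower in the contralateral isthmus (-1.38, adjusted p = 0.00255), with -0.34 ipsilaterally (adjusted p = 0.206). AXIN1, the scaffold of the destruction complex, was higher in the ipsilateral isthmus by 0.32 (adjusted p = 0.00832), against 0.036 contralaterally (adjusted p = 0.823). DKKL1, related to the Dickkopf proteins, was not called on either side (0.061 and -0.13), nor was SFRP1 contralaterally (-0.065, 95% interval -1.24 to 1.11).

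Of the 4 DNA-binding partners of beta-catenin, 2 differed in the same direction on both sides. TCF7 was higher in the isthmus, at 17.2 ± 6.66 CPM (SD, n = 14) against 2.78 ± 1.14 CPM (SD, n = 14) ipsilaterally (log2 fold change 2.60, adjusted p = 2.23e-11) and 24.1 ± 5.99 CPM (SD, n = 14) against 3.001 ± 1.87 CPM (SD, n = 14) contralaterally (3.02, adjusted p = 8.59e-12), with no overlap on either side. For TCF7L1, which mostly acts as a repressor, the isthmus values of heifers A to E were 10.01, 7.76, 8.77, 6.78 and 10.2 CPM ipsilaterally and 12.4, 9.78, 10.2, 9.87 and 5.76 CPM contralaterally. Their ampulla values were 0.397, 1.54, 0.652, 1.82 and 0.381 CPM and 1.04, 1.37, 1.33, 0 and 1.84 CPM. In heifers the lowest isthmus library was thus well above the highest ampulla library. Non-lactating cows A to E had 6.86, 5.49, 4.15, 1.28 and 10.5 CPM in the ipsilateral and 11.1, 2.07, 11.3, 8.48 and 8.31 CPM in the contralateral isthmus. In their contralateral ampulla the level was 0.957, 0.198, 0, 0.4304 and 1.79 CPM, and in the ipsilateral ampulla it was 0.741, 0.592, 1.82 and 0.454 CPM in cows A, B, D and E and 1.39 CPM in the library with a lactating number. On the ipsilateral side the isthmus of cow D lay below the ampulla of the same cow and within the ampulla range, and TCF7L1 was higher in the isthmus in 9 of 10 animals compared and lower in this 1. On the contralateral side the isthmus of cow B, at 2.07 CPM, was the lowest.

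Lactating cows A to D had 3.74, 9.93, 9.94 and 9.01 CPM of TCF7L1 in the ipsilateral and 8.38, 8.51, 6.204 and 7.75 CPM in the contralateral isthmus. The contralateral ampulla held 2.07, 0.442, 0.193 and 0 CPM in the same cows, and the ipsilateral ampulla 1.93, 0.374 and 1.42 CPM in cows A, C and D and 0.939 CPM in the library with a non-lactating number. Over all animals the TCF7L1 groups overlapped slightly on both sides, and the log2 fold changes were 2.78 (SE 0.29, adjusted p = 3.3e-09) and 3.32 (SE 0.38, adjusted p = 2.44e-08). LEF1, tested contralaterally, was higher in the isthmus by 2.01 (adjusted p = 0.00294) on 138 counts against 41. TCF7L1 and LEF1 passed the filter through their isthmus libraries, so that their calls are not independent of the segment where they are high. TCF7L2, another member of the family, was not called (0.19 and 0.38, adjusted p = 0.237 and 0.0896), except contralaterally without heifer E, non-lactating cow D or non-lactating cow E.

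**Figure D2:**
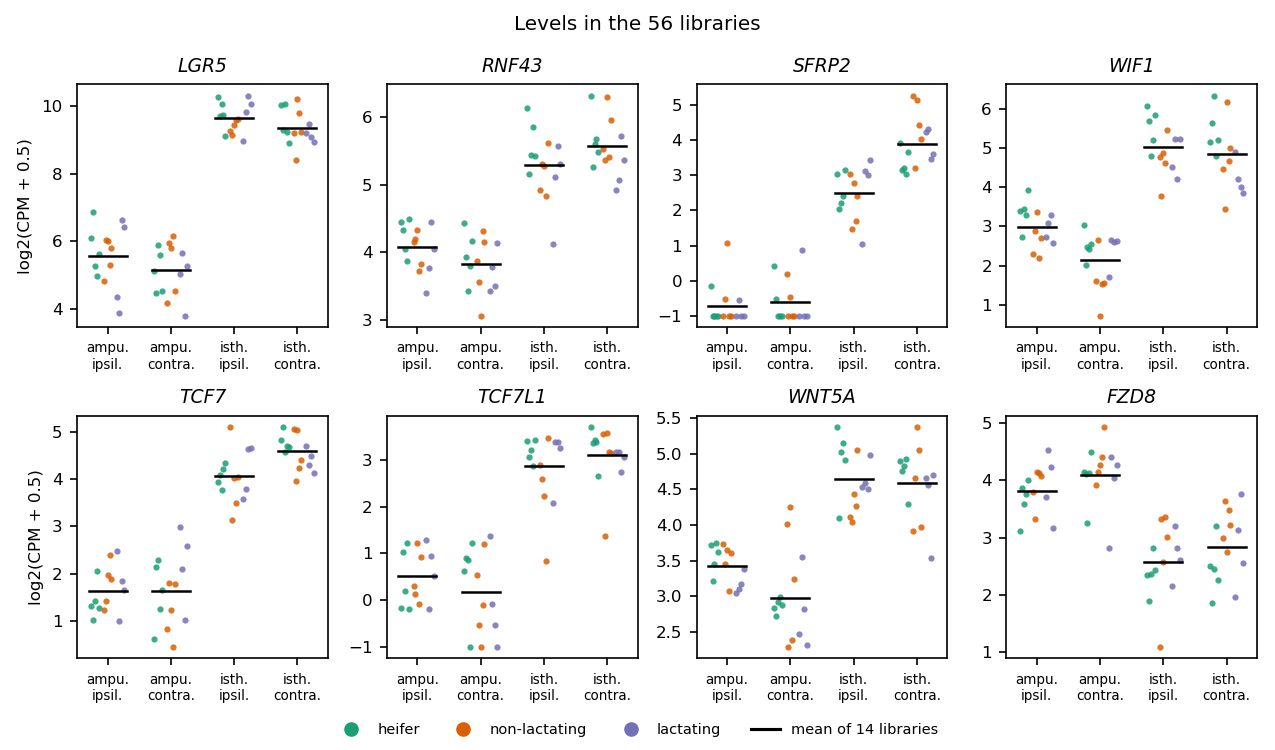
Levels of 8 members in the 56 libraries, as log2(CPM + 0.5), in the ipsilateral and contralateral ampulla and isthmus. Points are libraries coloured by metabolic group and lines are means of 14 libraries, and LGR5 and TCF7 show isthmus libraries above all ampulla libraries on each side while FZD8 shows the reverse order with overlap.

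Other genes of the pathway were followed as lists, whose counts stand against 50.3% of all genes called on the ipsilateral and 43.5% on the contralateral side. Of 16 feedback and target genes of beta-catenin outside the members, 13 were tested, with 3 higher and 5 lower in the ipsilateral isthmus and 5 higher and 4 lower in the contralateral isthmus, and their median log2 fold changes were -0.27 and 0.04. The called genes went in both directions, with MMP7, a matrix protease, at -2.65 and -3.82 and MYC, a growth regulator, at -1.82 and -1.04, while CD44, a cell adhesion receptor, stood at 1.97 and 2.07. NOTUM, the enzyme that removes the lipid from WNT ligands, was tested contralaterally and rose by 3.58 there. Of 15 genes for WNT secretion and extracellular control, 2 of 10 tested were higher and 3 lower ipsilaterally, and 5 of 12 higher and 3 lower contralaterally (medians -0.04 and 0.35). Among them GPC3, a glypican of the cell surface, rose by 4.37 contralaterally, TPBG, a membrane protein that modulates WNT signals, stood at -1.67 and -1.18, and NDP, the FZD4 ligand norrin, at 1.35 and 1.93. NOTUM and GPC3 averaged 1.46 and 1.62 CPM over all isthmus and 0.12 and 0.11 CPM over all ampulla libraries. Both passed the filter through their isthmus libraries, so that their calls are not independent of the segment where they are high. The size of their fold changes rests on few ampulla reads. Of 24 tested planar cell polarity genes, 12 were lower and 4 higher in the ipsilateral isthmus and 8 lower and 5 higher in the contralateral isthmus (medians -0.24 and -0.14), with DAAM2, a formin that binds Dishevelled, higher by 3.67 and 4.28. DAAM2 averaged 7.51 CPM over all isthmus and 0.42 CPM over all ampulla libraries. It passed the filter through its isthmus libraries, so that its calls are not independent of the segment where it is high. Of 22 destruction complex genes 5 were higher and 3 lower ipsilaterally and 8 higher and 3 lower contralaterally (medians 0.05 and 0.06), with APC, its scaffold, at 0.91 and 1.15. Of 17 nuclear co-factors 6 were higher and 5 lower ipsilaterally and 5 higher and 1 lower contralaterally (medians 0.10 for both sides).

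Markers of other cells also differed between regions. Ciliated cell markers were lower in the isthmus in 10 of 11 genes ipsilaterally and 11 of 11 contralaterally, and their summed level was 4554 to 6766 CPM in the ipsilateral isthmus against 6691 to 10300 CPM in the ampulla, and 5386 to 7554 against 7606 to 11110 CPM contralaterally. Endothelial markers were lower in the isthmus in 4 of 5 tested genes on each side, with sums of 13.5 to 57.9 CPM against 99.6 to 384 CPM ipsilaterally and 16.7 to 124 against 180.4 to 417 CPM contralaterally. Epithelial markers were higher in 7 of 7 genes ipsilaterally and 3 of 7 contralaterally, and secretory markers in 2 and 1 of 6, with 2 lower on each side. Smooth muscle markers rose in 1 of 5 genes on each side (MYH11, 5.13 and 4.89) and fell in 3 and 2, with sums of 33.2 to 97.1 against 15.5 to 38.7 CPM ipsilaterally and 18.0 to 86.3 against 10.6 to 38.5 CPM contralaterally, and SMTN stood at -1.07 and -1.94. Of 7 and 8 fibroblast genes tested 2 rose and 2 fell on each side, LUM by 6.32 and 6.79 upward. LUM averaged 33.7 CPM over all isthmus and 0.33 CPM over all ampulla libraries and had no count in 27 libraries. The size of its fold changes rests on few ampulla reads. THY1 lay the other way, at 13.4 CPM over all isthmus and 90.9 CPM over all ampulla libraries. No leukocyte gene passed on either side. The part of these cell types in the results of the members was not tested.

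Within the isthmus, the side of the CL was accompanied by lower levels of several receptors and of SFRP2. With the 3 metabolic groups together, 9 of 29 compared members were called (31%), against 28.4% of 15031 genes tested, so that the share was near the background. Of these, 2 were higher on the ipsilateral side (DKK3 and WNT5B), where 14.9% of all genes were called higher, and 7 were lower (SFRP2, FZD10, LEF1, FZD4, FZD7, TCF7 and FZD3), where 13.5% were called lower. The median log2 fold change was -0.11 over the members and -0.01 over all genes. A fit with each animal as a block called 11 members, adding FZD5 (0.40, adjusted p = 0.029) and RNF43 (-0.29, adjusted p = 0.0136). FZD5 was also called without lactating cow B, and WNT11 without heifer C or without lactating cow A. WNT9B, below 1 CPM, was also called, on 36 counts in the ipsilateral against 133 in the contralateral isthmus (log2 fold change -2.18, adjusted p = 0.00109). DKK3 passed the count filter mainly through its ipsilateral libraries, and LEF1 and WNT9B mainly through their contralateral libraries. The calls of these genes, and the counts that include them, are therefore not independent of the side where they are high.

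**Figure D3:**
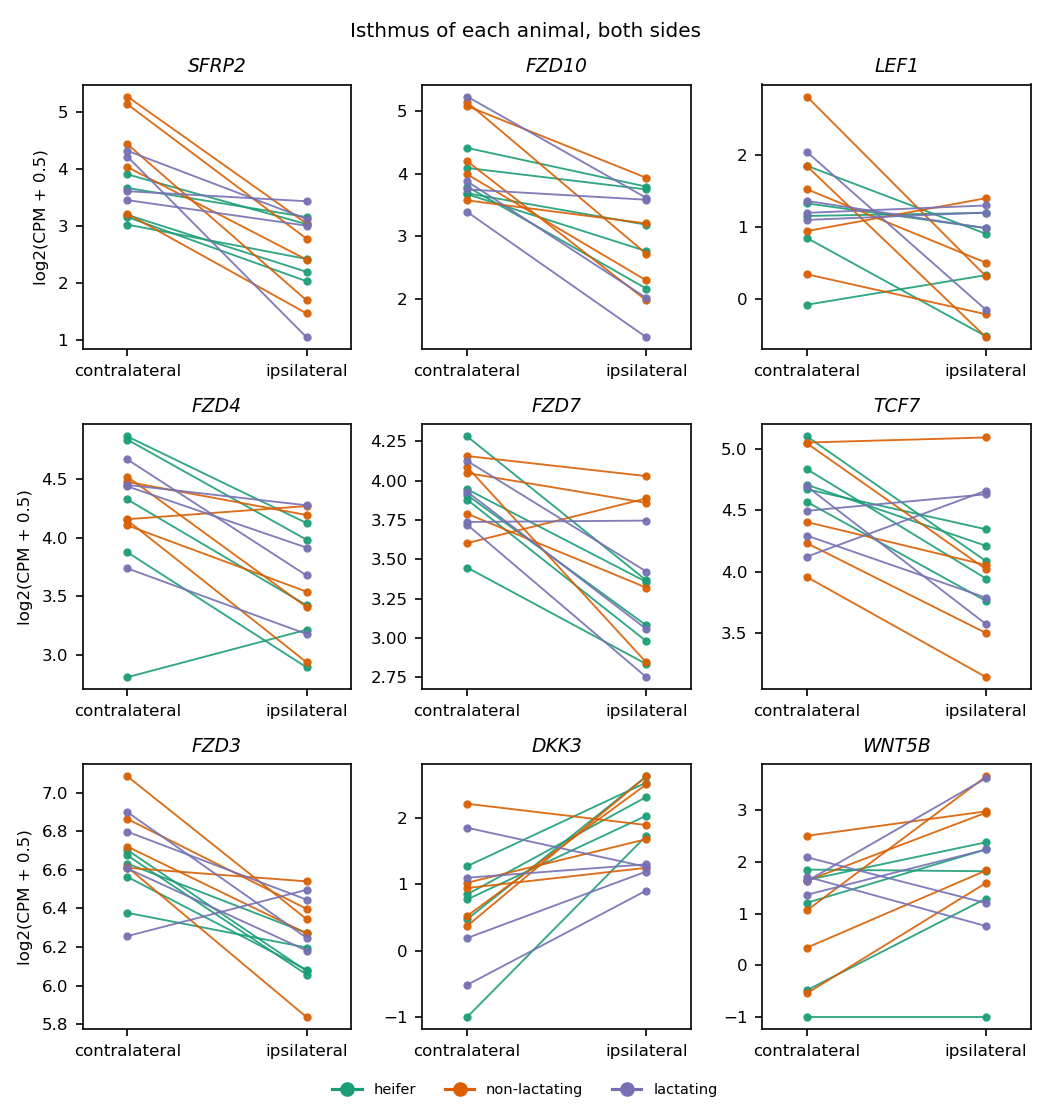
Levels of the 9 members called between the sides of the isthmus, as log2(CPM + 0.5), with a line for each of 14 animals from the contralateral to the ipsilateral isthmus, coloured by metabolic group. All 14 lines fall for SFRP2 and FZD10, and 12 of 14 rise for DKK3.

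SFRP2 was lower on the ipsilateral side in 14 of 14 animals. In heifers A to E its contralateral isthmus held 14.5, 8.44, 8.67, 7.66 and 12.2 CPM and its ipsilateral isthmus 7.697, 3.598, 4.095, 4.87 and 8.44 CPM. Non-lactating cows A to E went from 38.2, 8.803, 34.7, 21.2 and 15.9 CPM to 7.76, 2.27, 6.37, 2.75 and 4.83 CPM, and lactating cows A to D from 18.2, 19.5, 10.5 and 11.7 CPM to 1.57, 8.24, 7.55 and 10.3 CPM. The sides did not overlap in non-lactating or lactating cows and overlapped in heifers. Means over all animals were 5.74 ± 2.68 CPM (SD, n = 14) ipsilaterally and 16.4 ± 9.53 CPM (SD, n = 14) contralaterally (log2 fold change -1.47, SE 0.26, adjusted p = 0.000139).

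FZD10, a Frizzled receptor, was also lower in 14 of 14 animals. The contralateral isthmus of heifers A to E stood at 20.7, 13.3, 12.4, 16.5 and 12.2 CPM and the ipsilateral isthmus at 13.3, 3.98, 8.58, 12.9 and 6.28 CPM. In non-lactating cows A to E the contralateral values were 17.8, 11.4, 34.7, 15.4 and 33.3 CPM and the ipsilateral values 3.43, 8.71, 6.08, 4.401 and 14.8 CPM. Lactating cows A to D had 14.2, 9.96, 37.01 and 12.9 CPM and 3.54, 2.11, 11.7 and 11.5 CPM. The groups overlapped in each metabolic group, and the mean fell from 18.7 ± 9.28 CPM (SD, n = 14) to 7.95 ± 4.26 CPM (SD, n = 14) (log2 fold change -1.25, SE 0.27, adjusted p = 0.00094).

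FZD7 and FZD4 were lower on the side of the CL in 12 of 14 animals each. FZD7 stood at 14.5, 14.2, 10.4, 14.9 and 18.95 CPM in the contralateral and 7.95, 7.38, 6.63, 9.74 and 9.81 CPM in the ipsilateral isthmus of heifers A to E. For non-lactating cows A to E these were 16.5, 16.1, 13.3, 11.7 and 17.3 CPM and 6.68, 14.01, 9.49, 14.3 and 15.8 CPM, and for lactating cows A to D 16.96, 14.7, 12.8 and 12.7 CPM and 10.2, 7.82, 12.9 and 6.23 CPM. In heifers every contralateral library exceeded every ipsilateral library, and in the cows the sides overlapped (log2 fold change over all animals -0.59, adjusted p = 0.00154). FZD4 in the contralateral isthmus was 14.2, 19.6, 6.51, 28.6 and 28.1 CPM in heifers, 22.4, 21.8, 16.7, 17.2 and 17.3 CPM in non-lactating and 21.4, 21.2, 12.8 and 24.9 CPM in lactating cows. On the ipsilateral side the same animals gave 6.93, 10.2, 8.77, 16.9 and 15.3 CPM, 10.1, 17.8, 11.1, 7.15 and 18.8 CPM and 18.9, 14.6, 8.54 and 12.3 CPM. Heifer C, the lowest contralateral library, and non-lactating cow E were the exceptions to the fall (log2 fold change -0.63, adjusted p = 0.0109).

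FZD3 was lower in 13 of 14 animals. Contralateral values were 104, 82.6, 94.1, 98.7 and 102 CPM in heifers, 97.3, 116, 135, 97.5 and 105 CPM in non-lactating and 111, 75.97, 119 and 97.01 CPM in lactating cows. Ipsilateral values were 66.96, 72.9, 67.3, 76.9 and 66.1 CPM, 92.6, 83.9, 80.8, 56.7 and 76.7 CPM and 86.7, 89.8, 75.5 and 72.1 CPM. The sides were apart in heifers and in non-lactating cows, and lactating cow B was the animal that went the other way (log2 fold change -0.44, SE 0.073, adjusted p = 5.32e-05).

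The transcription factors TCF7 and LEF1 were lower on the side of the CL. TCF7 held 28, 33.8, 23.2, 25.6 and 24.95 CPM in the contralateral and 14.9, 16.5, 13.1, 18 and 19.8 CPM in the ipsilateral isthmus of heifers, with no overlap. In non-lactating cows the values were 32.6, 15.02, 32.5, 18.3 and 20.7 CPM and 33.6, 8.33, 15.7, 10.8 and 16.1 CPM, and in lactating cows 25.4, 19.1, 22.04 and 16.9 CPM and 11.4, 13.3, 24.2 and 24.8 CPM. The cow groups overlapped, and the fall held in 11 of 14 animals (log2 fold change -0.50, adjusted p = 0.0261). Its call was lost without heifer A, heifer B, lactating cow A or non-lactating cow C, with adjusted p = 0.0613 to 0.0662. LEF1 was near the floor of detection, at 1.73, 0.444, 1.301, 2.02 and 3.12 CPM contralaterally and 1.796, 0.757, 0.195, 1.48 and 1.37 CPM ipsilaterally in heifers. Non-lactating cows gave 0.767, 3.11, 6.57, 2.38 and 1.43 CPM and 0.361, 0.189, 0.741, 0.917 and 2.15 CPM, and lactating cows 1.796, 2.08, 3.64 and 1.64 CPM and 1.97, 1.48, 0.397 and 1.803 CPM. LEF1 was lower in 9 of 14 animals and overlapped in every group (log2 fold change -1.07, adjusted p = 0.0238), and leaving out non-lactating cow C or lactating cow C raised the adjusted p to 0.0872 and 0.0613. TCF7L1 and TCF7L2 were not called (-0.25 and -0.11).

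DKK3 and WNT5B were the members higher on the ipsilateral side. DKK3 in heifers A to E was 0, 0.889, 1.301, 1.21 and 1.92 CPM contralaterally and 2.82, 5.68, 4.49, 3.6 and 5.296 CPM ipsilaterally, with no overlap. The non-lactating values were 1.54, 4.14, 0.938, 0.795 and 1.43 CPM and 2.71, 3.22, 5.19, 5.68 and 1.88 CPM, and the lactating values 0.1996, 3.11, 0.642 and 1.64 CPM and 1.38, 1.902, 1.79 and 1.97 CPM. Over all animals the contralateral isthmus held 78 counts and the ipsilateral isthmus 250, and 12 of 14 animals rose (log2 fold change 1.22, SE 0.33, adjusted p = 0.00551). WNT5B was 0, 3.11, 0.217, 1.81 and 2.64 CPM contralaterally and 0, 3.03, 1.95, 4.24 and 4.71 CPM ipsilaterally in heifers. It went from 0.767, 5.18, 0.188, 1.59 and 2.61 CPM to 3.07, 7.38, 2.52, 12.1 and 7.24 CPM in non-lactating cows and from 2.59, 2.08, 2.78 and 3.76 CPM to 11.8, 4.23, 1.19 and 1.803 CPM in lactating cows. WNT5B rose in 10 of 14 animals, fell in 3 and was at 0 on both sides in heifer A (log2 fold change 1.17, adjusted p = 0.0485). The call of WNT5B was lost in 9 of 14 fits that left out 1 animal, those without heifers C, D or E, lactating cows A or B and non-lactating cows A, C, D or E, with the highest adjusted p of 0.124 without lactating cow A.

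LGR5, LGR4, LRP5, LRP6, WIF1 and AXIN1 were not called between the sides of the isthmus. The difference in LGR5 was 0.26 on the log2 scale (95% interval -0.07 to 0.58), and that in LGR4 -0.076 (-0.20 to 0.05). WIF1 differed by 0.067 (-0.37 to 0.51). LGR5 was higher on the side of the CL in 10 of 14 animals and LRP6 in 7 of 14.

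**Figure D4:**
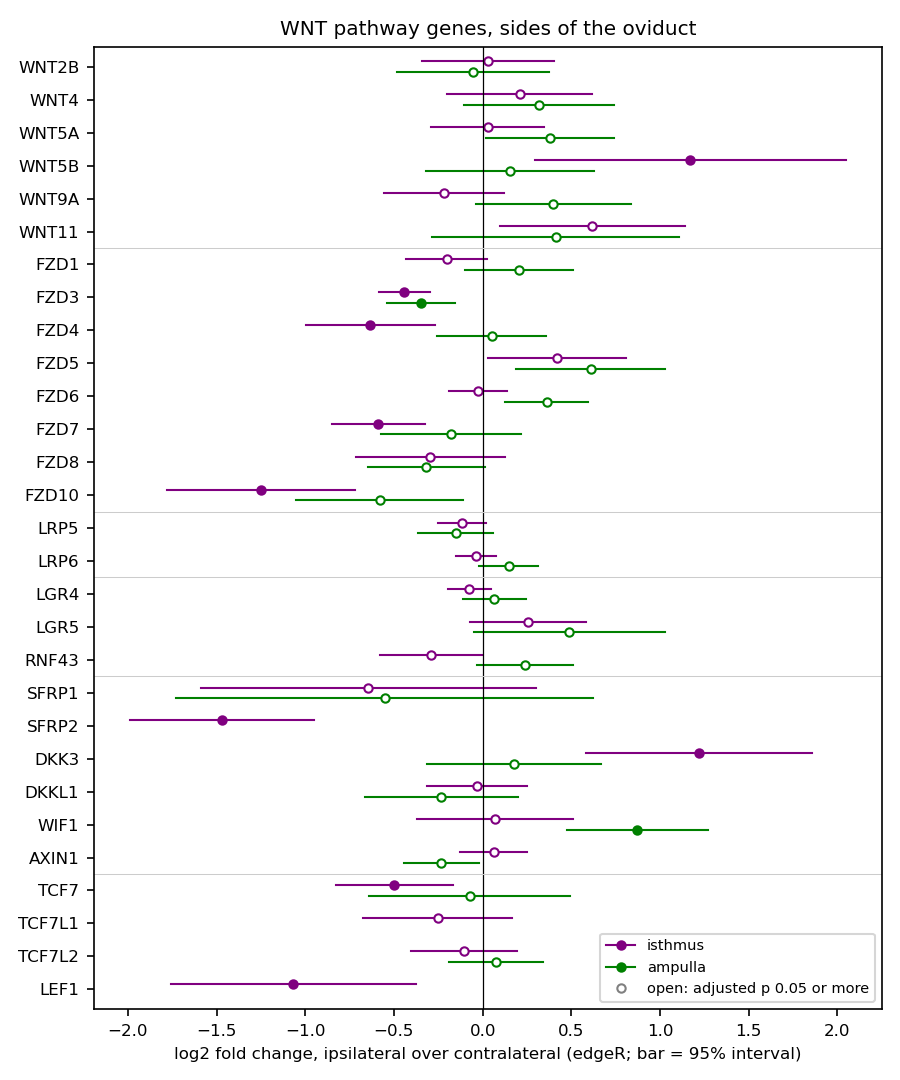
Log2 fold changes of the compared members, ipsilateral over contralateral, in the isthmus (purple) and the ampulla (green) with the 3 metabolic groups together, from edgeR, with 95% intervals as bars. Filled points have an adjusted p under 0.05, which 9 members reached in the isthmus and 2 in the ampulla.

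Within the metabolic groups the calls were fewer. In heifers 4 of 27 tested members were called in the isthmus (14.8%), against 10% of 13548 genes. They were DKK3 (1.91, adjusted p = 0.0215), FZD7 (-0.84, adjusted p = 0.0203), TCF7 (-0.74, adjusted p = 0.0132) and FZD3 (-0.48, adjusted p = 0.00928), and SFRP2 and FZD10 were added with the animal as a block. In heifers DKK3 passed the filter only through its ipsilateral libraries, so that its call is not independent of the side where it is high. Leaving out heifer A, B or E left 1 of the 4 calls each, and leaving out heifer C left 3, with the highest adjusted p of 0.0901 for FZD7 without heifer E. In non-lactating cows 2 of 27 were called (7.41%), against 5.11% of 13869 genes, SFRP2 (-2.33, adjusted p = 0.00835) and FZD10 (-1.65, adjusted p = 0.0363). The block raised this to 6, adding FZD3, FZD5, RNF43 and WNT5B, and leaving out cow A, B, C or D left only SFRP2 (FZD10 had an adjusted p of 0.176 without cow C). In non-lactating cows WNT5B passed the filter mainly through its ipsilateral libraries, so that its call is not independent of the side where it is high. In lactating cows edgeR called 0 of 26 members, against 0.187% of 13904 genes. DESeq2 also called 0 members, against 321 genes (1.01% of the 31903 in the table). An unadjusted p under 0.05 was reached by 4 members, and by 12.2% of all genes. The smallest p belonged to LGR5, which was 941 ± 329 CPM (SD, n = 4) ipsilaterally and 582 ± 92.7 CPM (SD, n = 4) contralaterally (log2 fold change 0.69, adjusted p = 0.297). The side difference was not shown to differ between the metabolic groups for any member in the isthmus (interaction test of edgeR, 0 of 29 called, and 0 by DESeq2). An unadjusted p under 0.05 was reached by 1 member, SFRP2 (adjusted p = 1), and by 2.05% of all genes.

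The lists of other pathway genes were also followed between the sides of the isthmus, where 28.4% of all genes were called. Of 13 tested feedback and target genes of beta-catenin, 0 were higher and 7 lower in the ipsilateral isthmus, where 13.5% of all genes were called lower, with a median log2 fold change of -0.59 against -0.01 over all genes. The list was fixed with earlier results of these data known. They were NOTUM (-2.24), NKD1 (-1.94), a feedback inhibitor that binds Dishevelled, MYC (-0.93), CCND1 (-0.73), EPHB2 (-0.64), TNFRSF19 (-0.59) and PROX1 (-0.59), the last 4 named after their values were seen. Of 12 tested genes of WNT secretion and extracellular control 0 rose and 3 fell, again NOTUM, with GPC3 (-1.07) and WLS (-0.83), the carrier that brings WNT ligands to the cell surface (median -0.22). NOTUM and GPC3 were low, with means of 1.46 and 1.62 CPM over all isthmus libraries. Both passed the filter mainly through their contralateral libraries. Their calls, and the counts that include them, are therefore not independent of the side where they are high. Of 22 destruction complex genes 5 rose and 6 fell, with a median of -0.05. Of 17 nuclear co-factors 5 rose and 4 fell, with AES, a co-repressor, higher by 0.81 (median 0.04). Of 24 polarity genes 3 rose and 6 fell, with DAAM2 at -1.74 (median -0.06).

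Among the cell markers of the isthmus, 4 of 7 epithelial genes were higher and 1 lower on the ipsilateral side, and 2 of 6 secretory genes were higher, LTF by 2.99. Ciliated genes gave 1 higher and 2 lower of 11, endothelial genes 1 and 1 of 5, and fibroblast genes 1 higher of 8 (THY1, 3.16), while no smooth muscle or leukocyte gene was called. The summed epithelial level was 1397 to 2087 CPM ipsilaterally and 1253 to 1725 CPM contralaterally, and the ciliated sum 4554 to 6766 against 5386 to 7554 CPM. The median log2 fold change of the 11 ciliated genes was nonetheless 0.12, against -0.01 over all genes. The part of these differences in the results of the members was not tested.

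Fewer members were called between the sides of the ampulla. With the groups together, 2 of 26 tested members were called (7.69%), against 4.99% of 15270 genes. LEF1, SFRP2 and TCF7L1 did not pass the filter there. WIF1 in the contralateral ampulla was 7.68, 3.53, 5.08, 4.84 and 5.34 CPM in heifers A to E, 2.55, 5.74, 1.15, 2.37 and 2.44 CPM in non-lactating cows A to E and 2.76, 5.75, 5.597 and 5.66 CPM in lactating cows A to D. On the ipsilateral side it was 9.93, 6.17, 10.4, 9.29 and 14.7 CPM in heifers, 4.45, 6.904, 9.79 and 4.08 CPM in non-lactating cows A, B, D and E and 6.14, 8.05 and 9.24 CPM in lactating cows A, C and D. The libraries with a number of the other group held 5.96 CPM in the non-lactating and 5.45 CPM in the lactating group. WIF1 was higher on the ipsilateral side in 10 of 10 animals, by 1.27 to 3.59 times, although the groups overlapped (log2 fold change 0.87, SE 0.20, adjusted p = 0.011), and the call held without the doubtful libraries.

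FZD3 in the contralateral ampulla was 124, 126, 144, 141 and 66.7 CPM in heifers, 142, 129, 148, 131 and 89.7 CPM in non-lactating and 122, 116, 139 and 143 CPM in lactating cows. The ipsilateral ampulla gave 85.03, 109, 115, 85.8 and 95.5 CPM in heifers, 79.3, 114, 84.7 and 105 CPM in non-lactating cows A, B, D and E, 107, 101 and 89.8 CPM in lactating cows A, C and D, and 117 and 98.4 CPM in the non-lactating and lactating libraries with a number of the other group. FZD3 was lower in 8 of 10 animals (log2 fold change -0.35, adjusted p = 0.0332), and only the lactating groups did not overlap. The call was lost in 8 of 14 fits that left out 1 animal, namely heifers A, C and D, lactating cows C and D and non-lactating cows A, C and D, with the highest adjusted p of 0.0799 without non-lactating cow A. Animals were left out by number, so the fit without non-lactating cow C also dropped the lactating library with its number. It was also lost with the animal as a block once the doubtful libraries were left out. The block called 4 members, adding FZD5 (0.61, adjusted p = 0.0479) and FZD6 (0.39, adjusted p = 0.0155), which stayed called when the doubtful libraries were left out.

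Of the other pathway genes few were called between the sides of the ampulla, where 4.99% of all genes were. They were 1 of 10 secretion genes (SULF2, 0.34), 2 of 22 destruction complex genes (GSK3B, 0.38, and CTNNB1, 0.23), 0 of 17 nuclear co-factors, 1 of 13 feedback and target genes (MMP7, -0.97) and 2 of 23 polarity genes (ROR1, 0.62, and INVS, -0.32), all by edgeR. Among the cell markers there 1 of 5 smooth muscle genes was higher on the ipsilateral side and no gene of the other lists was called.

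Within each metabolic group edgeR called 0 of 24 tested members between the sides of the ampulla. Unadjusted p values under 0.05 numbered 2 in heifers, 3 in non-lactating and 1 in lactating cows, against 9.2, 11.1 and 4.26% of all genes, and DESeq2 called 0, 1 and 0. The smallest p were those of WNT5A in heifers (0.74, adjusted p = 0.319), FZD5 in non-lactating cows (1.08, adjusted p = 0.144) and FZD3 in lactating cows (-0.40, adjusted p = 0.999). FZD5 was called there by DESeq2, with the block, without the filter and without the library that carries the number of lactating cow B, but not with the block when the doubtful libraries were left out. Of all genes 0, 0.0947 and 0% were called in these comparisons. No difference of the side effect between metabolic groups was called for a member in the ampulla (edgeR called 0 of 26 and DESeq2 0, and 0 had an unadjusted p under 0.05, against 1.15% of all genes).

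Whether the side difference differed between the isthmus and the ampulla was tested as an interaction. None of 29 members (0) was called by edgeR or DESeq2, and edgeR called 5.97% of 16060 genes. An unadjusted p under 0.05 was reached by 8 members and by 20.4% of all genes. The smallest p was that of FZD4 (-0.68 on the log2 scale, adjusted p = 0.0807), followed by FZD6 (-0.39, adjusted p = 0.0948). With each animal as a block 3 members were called, FZD4 (-0.71, adjusted p = 0.0163), FZD6 (-0.41, adjusted p = 0.0328) and RNF43 (-0.54, adjusted p = 0.0399), and without the doubtful libraries FZD4 and FZD6. Leaving out heifer C without the block gave 1 call, FZD4. For all 3 the ipsilateral over contralateral ratio was lower in the isthmus than in the ampulla.

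Metabolic status was not accompanied by a difference called by edgeR in any member. edgeR called 0 of 24 to 27 tested members in each of the 12 comparisons between heifers, non-lactating cows and lactating cows, 3 for each segment and side. Heifers, non-lactating and lactating cows each enter 2 comparisons of a segment and side, so that these share libraries. DESeq2 also called 0, except for WIF1 between lactating cows and heifers in the contralateral isthmus. Over all genes DESeq2 called 127, 229 and 15 in the ipsilateral isthmus, 73, 22 and 2 in the contralateral isthmus, 23, 0 and 0 in the ipsilateral ampulla and 1, 4 and 6 in the contralateral ampulla, for lactating cows against heifers, non-lactating cows against heifers and lactating against non-lactating cows. In the ipsilateral isthmus 6, 7 and 2 members had an unadjusted p under 0.05 for lactating cows against heifers, non-lactating cows against heifers and lactating against non-lactating cows, compared with 10.4, 11.8 and 6.26% of the genes tested, and 0, 0.0073 and 0% of all genes were called. The member with the smallest p was DKK3 for lactating cows against heifers (-1.28, adjusted p = 0.279), WIF1 for non-lactating cows against heifers (-0.80, adjusted p = 0.292) and DKK3 for lactating against non-lactating cows (-1.08, adjusted p = 0.798). DKK3 in this tissue stood at 1.76 ± 0.265 CPM (SD, n = 4) in lactating cows and 4.38 ± 1.18 CPM (SD, n = 5) in heifers, which did not overlap. WIF1 was 27.1 ± 10.8 CPM (SD, n = 5) in non-lactating cows against 47.5 ± 15.6 CPM (SD, n = 5) in heifers.

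In the contralateral isthmus the unadjusted counts were 3, 7 and 1 in the same order, compared with 10.7, 9.18 and 3.94% of the genes tested, and 0, 0 and 0% were called. WNT2B led for lactating cows against heifers, at 8.596 ± 0.784 CPM (SD, n = 4) against 3.83 ± 1.33 CPM (SD, n = 5) (log2 fold change 1.17, adjusted p = 0.372, no overlap), and WNT9A (-1.07) and WIF1 (-1.25) had the same adjusted p. SFRP2 led for non-lactating cows against heifers (1.24, adjusted p = 0.467) and FZD5 for lactating against non-lactating cows (0.68, adjusted p = 1). In the ipsilateral ampulla 0, 2 and 2 members had an unadjusted p under 0.05, compared with 7.15, 3.63 and 3.57% of genes. The smallest p were those of LGR4 (-0.23, adjusted p = 0.724), WIF1 (-0.70, adjusted p = 0.999) and TCF7L2 (-0.48, adjusted p = 0.998), and 0, 0 and 0% of all genes were called. In the contralateral ampulla the counts were 1, 0 and 0, compared with 4.73, 4.35 and 5.06% of genes. The smallest p were those of TCF7L2 (-0.64, adjusted p = 0.943), WIF1 (-0.85, adjusted p = 0.999) and TCF7L2 (-0.63, adjusted p = 0.938), and 0, 0 and 0% were called.

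**Figure D5:**
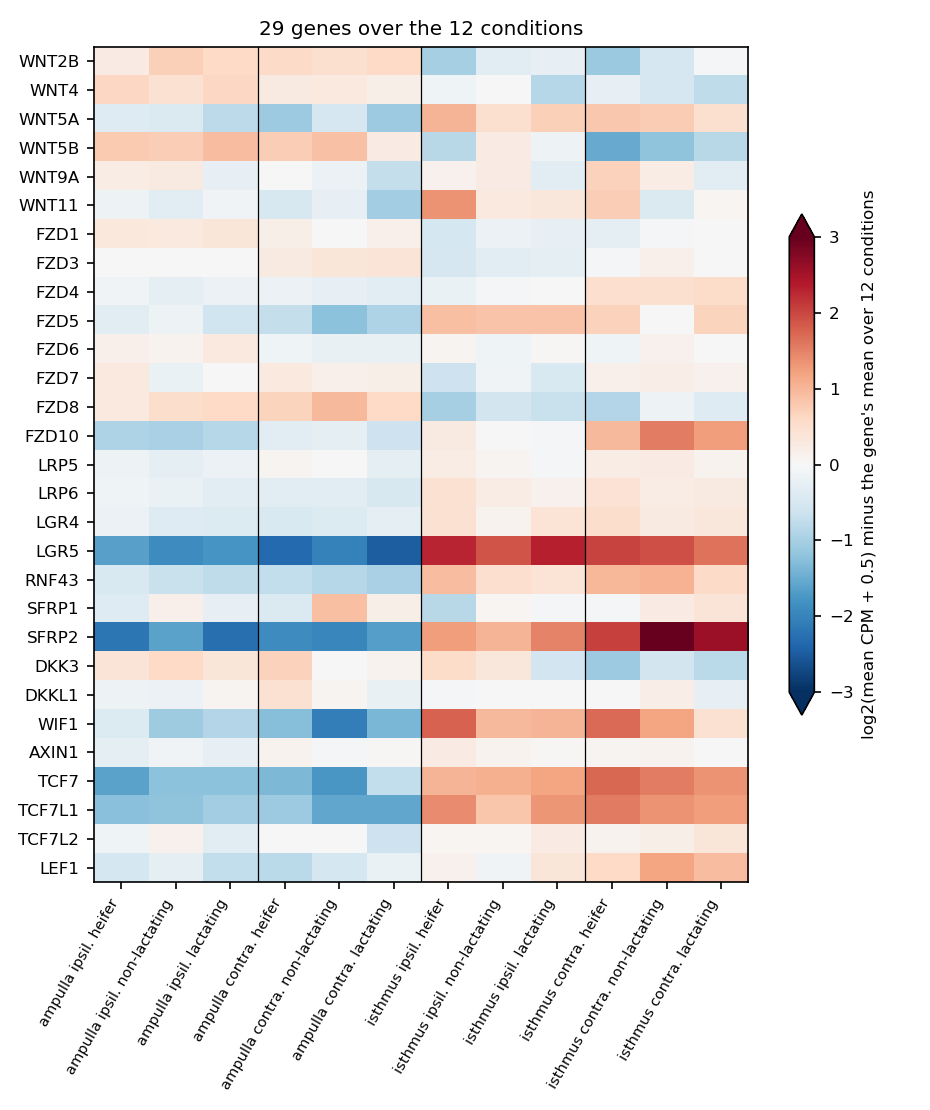
Mean level of each compared member in the 12 conditions, as log2(mean CPM + 0.5) minus the mean of that gene over the conditions, from blue (lower) to red (higher). LGR5, SFRP2, WIF1, TCF7 and TCF7L1 are red in the 6 isthmus and blue in the 6 ampulla conditions, and SFRP2 and FZD10 are deepest in the contralateral isthmus.

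The members called between the sides of the isthmus had companions among the other members over the 12 condition means, given as Spearman correlations for description, since the conditions share animals. The conditions cover both segments, so that these values also take in differences between isthmus and ampulla. Only the highest correlations of each member are named. LEF1 and SFRP2 were most alike (0.94), and each was close to TCF7 (0.92 for both). FZD10 was closest to LRP5 (0.92) and then to SFRP2 (0.84). FZD4 was closest to RNF43 (0.75), FZD3 to FZD8 (0.84) and FZD7 to FZD3 (0.59). WNT5B resembled WNT4 (0.85) and FZD1 (0.84), and DKK3 resembled WNT4 (0.68). By position in the ARS-UCD2.0 annotation, 4 pairs of members are adjacent genes, WNT9B with WNT3, WNT6 with WNT10A, WNT1 with WNT10B and WNT3A with WNT9A. In the last pair WNT9A averaged 6.43 CPM and WNT3A 0.489 CPM.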

How the data were processed

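RNA-seq counts of 56 libraries from 14 animals were used as deposited. The authors made stranded libraries, aligned reads to Btau_4.6.1 with TopHat2 2.0.13 and counted them per gene with HTSeq 0.6.1 (strand-specific, intersection-strict), and these raw counts per gene were deposited without normalization. Column names gave each library's group, and the animal number in a name tied the libraries of an animal together.

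Genes were filtered with filterByExpr (minimum count 10), scaled by TMM and tested across all genes with the quasi-likelihood test of edgeR 4.0.16 in R 4.3.3, with limma 3.58.1 loaded. The threshold was an adjusted p of 0.05 (Benjamini-Hochberg), and p-values measure the spread between libraries of a condition. The main fits of region, side and interactions held no term for the animal. Libraries of 1 animal thus entered them as independent, and their p-values ignore the pairing. In the comparisons of metabolic groups each animal gave 1 library. Comparisons were region on each side, side in each segment with the 3 groups together and within each, metabolic groups in each segment and side, and the interactions. Alternatives were DESeq2 1.42.0, RLE size factors, no filter, an animal block, leaving out each animal, and leaving out 4 doubtful libraries. Animals were left out by the number in the column names, so with a doubtful library such a fit may drop libraries of different animals. The scripts were tested on simulated data. CPM used TMM-scaled totals, 0.5 was added to CPM in ratios within an animal and in plots on a log scale, and shown intervals are at 95%.

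Lines of alignments not assigned to genes were kept out of totals and tests. Counts on genes were 1901454 to 6836850 per library, and low values carry counting error. Libraries of 1 animal deviated together (median r = 0.34 over 26 pairs from -0.04 to 0.66, 20 pairs over 0.1, 10616 genes), and the pairing comes from the animal numbers. The 4 doubtful libraries weaken it in the ipsilateral ampulla.

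Every member is named. Called members are given with fold change and adjusted p, library values are given for members called between sides and for the 3 largest fold changes between regions on each side, and the member with the smallest p is named where none is called. For the other lists at most 3 called genes of largest fold change are named, except CCND1, EPHB2, TNFRSF19 and PROX1, named after their values were seen. Members and lists were chosen with earlier results of these data known. RefSeq names of assembly ARS-UCD2.0 matched 51 of 51 members. Sequences were not used here.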

Additional observations from a re-analysis of the deposited data

Results flagged for a closer look

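Of 96 groups of 4 or 5 libraries examined for the members with library values, 10 held a library that stood apart from the others of its group by Dixon's criterion, and chance gives about 1 in 20 groups. In the isthmus, DKK3 stood at 4.143 CPM in the contralateral library of non-lactating cow B, on 8 counts in the smallest library (1901454 counts), where the other 4 cows were at 0.795 to 1.54 CPM. FZD10 reached 37.01 CPM in the contralateral isthmus of lactating cow C, above 9.96 to 14.2 CPM in the other lactating cows. TCF7L1 was low in the ipsilateral isthmus of lactating cow A, at 3.735 CPM, below 9.01 to 9.94 CPM in the others.

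In the ampulla, FZD3 was low on the contralateral side of heifer E, at 66.73 CPM against 124 to 144 CPM in the other heifers. WIF1 was low on the contralateral side of lactating cow A, at 2.763 CPM against 5.60 to 5.75 CPM in the other lactating cows. The other 5 groups concern SFRP2, which was at 0 in most ampulla libraries, so that a library with 1 to 7 counts stands apart. They were the ipsilateral ampulla of non-lactating cow D (1.593 CPM), heifer A (0.3973 CPM) and lactating cow C (0.1871 CPM), and the contralateral ampulla of heifer A (0.8306 CPM) and lactating cow B (1.326 CPM).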

How the results depend on the processing

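No log2 fold change of a called member changed sign under an alternative, and 1040 of these recomputed values kept their side of the threshold and 52 did not. With each animal as a replicate block, 4 members in place of 2 were called between the sides of the ampulla, 6 in place of 2 between the sides of the isthmus of non-lactating cows, 1 in place of 0 in their ampulla and 3 in place of 0 in the region by side interaction. Without the 4 doubtful libraries, a choice made after seeing the data, this block gave 2 for the interaction. DESeq2 called 4 members between the sides of the isthmus of non-lactating cows, 1 in their ampulla, and 1 between lactating cows and heifers in the contralateral isthmus. Without the filter 1 member was called in the ampulla of non-lactating cows. Leaving out each animal in turn gave 1 to 2 members between the sides of the ampulla, 1 to 4 in the isthmus of heifers, 1 to 2 in that of non-lactating cows, 0 to 1 in their ampulla and 0 to 1 for the interaction. The other counts of members called stayed within 1.5 times, and the block changed no call of a compared member beyond those named in the text. Counts over all genes moved more: between the sides of the isthmus from 26 to 321 with DESeq2 and 323 with the block in lactating cows, from 709 to 1252 with DESeq2 in non-lactating cows and from 1361 to 179 without heifer E in heifers, and between the sides of the ampulla from 762 to 376 without the doubtful libraries, and DESeq2 called more genes between metabolic groups in the ipsilateral isthmus (127, 229 and 15, against 0, 1 and 0 by edgeR). The median log2 fold change of all genes between regions on the contralateral side, -0.01, was 0.02 with the block and 0.08 with DESeq2. The causes were not tested. Members under the floor of 3 counts, such as SFRP2 in the ampulla, are limited by depth.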
